A study of Mus musculus with 2 samples.

Results

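The genes described here are 10 genes of insulin and insulin-like growth factor (IGF) signalling in the left cerebral cortex of young mice, chosen by symbol from 55536 annotated genes. They comprise 1 ligand (Igf1), 2 receptors (Igf1r and Insr), 2 docking proteins (Irs1 and Irs2) and 5 genes of the binding-protein family (Igfbp2, Igfbp3, Igfbp4, Igfbp5 and Igfbpl1). All 10 symbols matched 1 gene each in the annotation, GENCODE M21 on mm10. IGF-1 and insulin are secreted peptides that activate a pair of closely related receptor tyrosine kinases. The active receptors phosphorylate docking proteins, which recruit PI3-kinase and start signalling through AKT and mTOR. Secreted binding proteins hold IGFs outside the cell and can block or prolong their action, and in the postnatal brain the pathway is known for promoting the growth and survival of neurons and the making of myelin.

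Total RNA had been sequenced from left cerebral cortex taken from male mice of the strain B6CASTF1/J aged 14 days, with 300 ng of RNA per library. B6CASTF1/J is a first-generation hybrid of the C57BL/6J and CAST/EiJ strains. The samples were 2 libraries of 1 group, here called replicate 2 and replicate 1 after their labels. The labels give each library its own biosample but 1 shared donor entry, and mention 3 males without stating pooling, so the spread between the libraries may be technical. There was no treatment, no genotype contrast and no control group, so no comparison of conditions could be made and no p-value is given. An exact sign-flip test on 2 libraries cannot give a p below 0.5.

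The gene tables held 30982776 expected counts (estimated reads) in replicate 2 and 28377847 in replicate 1. All 4 markers of upper-layer cortical neurons and all 5 markers of deep-layer neurons were at 1 TPM (a length-corrected unit of RNA abundance) or more in both libraries. The libraries differed in other markers: the summed TPM of 8 striatal neuron markers was 158 in replicate 2 and 559 in replicate 1, with all 8 lower in replicate 2. The summed TPM of 6 choroid plexus markers was 127 in replicate 2 and 36.3 in replicate 1, with 4 of the 6 higher in replicate 2 and 3 of the 6 at 1 TPM in both libraries. Most of that sum was Ttr, at 118 TPM in replicate 2 and 30.4 TPM in replicate 1. The sum for 4 myelinating oligodendrocyte markers was 578 in replicate 2 and 899 in replicate 1, with all 4 lower in replicate 2. The 5 deep-layer markers summed to 96.7 and 168, in the same order of libraries, with 4 of the 5 lower in replicate 2. The deep-layer marker Fezf2 was higher in replicate 2, at 13.09 TPM against 11.65 TPM in replicate 1. All 4 upper-layer markers were higher in replicate 2, with sums of 288 in replicate 2 and 216 in replicate 1, and 6 interneuron markers summed to 365 and 449 in the same order, with 4 of the 6 lower in replicate 2. No marker of any of these lists was at 0 in either library.

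Insr and Igf1 each have an alternatively spliced exon within their coding sequence, and these sequences are shown because transcripts with and without the exon were quantified separately. The Insr exon separates the A form of the receptor, which lacks it and binds IGF-2 the more strongly, from the B form, which carries it. The Igf1 exon changes the tail of the precursor peptide, and in rodents the form that carries it is known as IGF-1Eb or mechano growth factor. Capitals mark the 36 bases of the Insr exon (chr8:3181702-3181737, minus strand) and the 52 bases of the Igf1 exon (chr10:87915298-87915349, plus strand). Lower case marks 15 bases of the neighbouring exons on each side. All sequences run 5′ to 3′ along the transcript and are from GENCODE M21 transcripts on GRCm38 (mm10).
Insr-203, with the exon: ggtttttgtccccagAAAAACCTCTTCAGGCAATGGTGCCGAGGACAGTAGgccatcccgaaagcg
Insr-201, without the exon: ggtttttgtccccaggccatcccgaaagcg
Igf1-203, with the exon: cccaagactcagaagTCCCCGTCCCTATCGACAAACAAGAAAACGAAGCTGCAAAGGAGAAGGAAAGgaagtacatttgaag
Igf1-202, without the exon: cccaagactcagaaggaagtacatttgaag

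Of the 10 genes, 9 reached 1 TPM in both libraries, against 58.7% of 22015 nuclear protein-coding genes, and Igfbpl1 did so in replicate 1 alone. The TPM value is the number of reads per transcript length, scaled to a fixed sum per library, so that levels of different genes can be set side by side. Mean TPM ran in the order Igfbp2, Igfbp4, Igfbp5, Irs2, Insr, Igf1r, Igfbp3, Irs1, Igf1 and Igfbpl1. The highest levels were thus those of secreted binding proteins, and the ligand was ninth of the 10 genes. In the second transcript table Igf1 ranked 8 and Irs1 ranked 9, and the log2 ratio of levels, Irs1 over Igf1, was -0.0036 ± 0.18 there and 0.28 ± 0.05 in the gene table, so their order rests on the gene table. In tissue RNA of this kind, fewer cells of a type and less RNA per cell cannot be told apart.

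**Figure D1:**
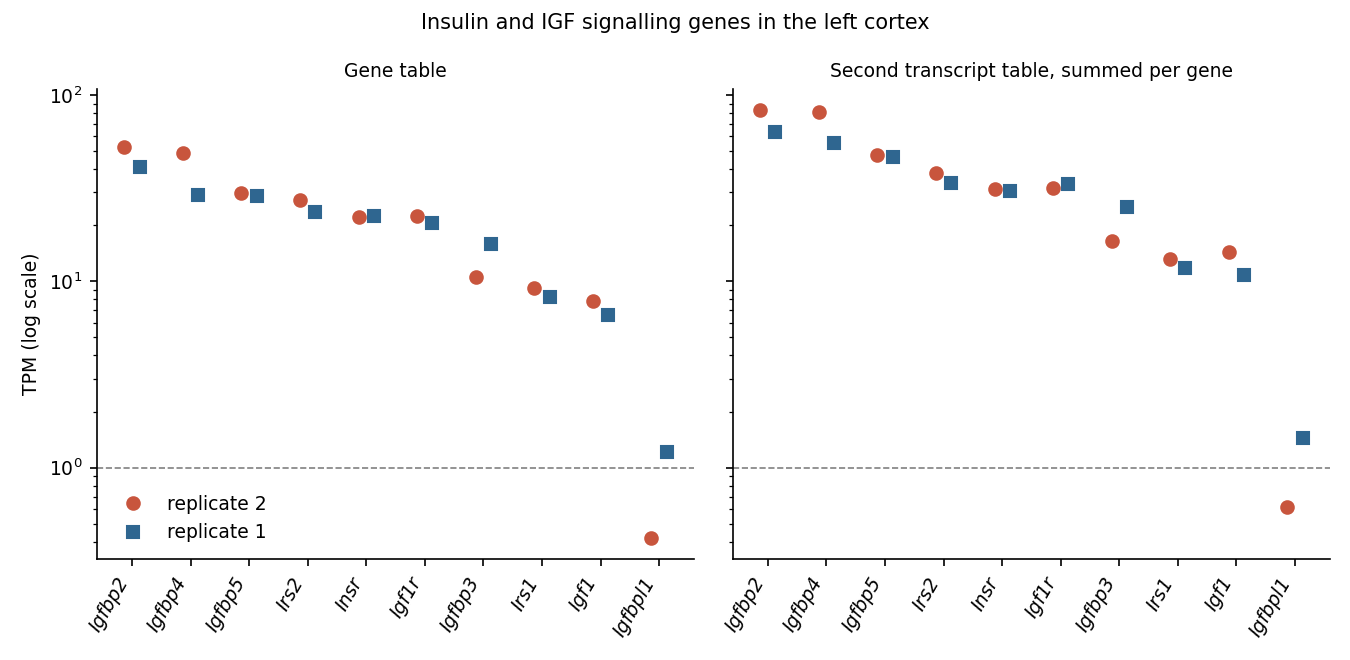
Level of each gene in TPM (log scale) in replicate 2 (circles) and replicate 1 (squares), in the gene table (left) and summed from the second transcript table (right), with genes in the order of their mean TPM in the gene table. The dashed line marks 1 TPM; only Igfbpl1 has a library below it, at 0.42 TPM in replicate 2 against 1.22 TPM in replicate 1 in the gene table.

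A neighbouring pair in this order was called separated where both libraries gave the same order and the mean log2 ratio of TPM + 0.1 exceeded its SD. With 2 libraries this is a description of their spread. By that measure 7 of the 9 neighbouring pairs were separated. Igfbp4 and Igfbp5 were not, with a log2 ratio of levels, Igfbp4 over Igfbp5, of 0.36 ± 0.49 (SD, n = 2). That pair was separated in the second transcript table, at 0.51 ± 0.37, and separated in the opposite order over coding transcripts only, at -0.71 ± 0.64. Insr and Igf1r were not either, with a log2 ratio of levels, Insr over Igf1r, of 0.05 ± 0.10. The separation of Igfbp2 from Igfbp4 was narrow, at 0.30 ± 0.27, and in the second table, where their log2 ratio was 0.11 ± 0.12, they were not separated. Igf1r and Igfbp3, separated at 0.73 ± 0.51, were not separated over coding transcripts only, at 0.43 ± 0.48.

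Igf1 (chr10:87858265-87937042, plus strand), which encodes the ligand IGF-1, had 7.80 TPM in replicate 2 and 6.58 TPM in replicate 1. The level was low but present in both libraries, at 7.19 ± 0.863 TPM (SD, n = 2), and 27.6% of detected protein-coding genes had a lower mean. These levels rested on 881 expected counts in replicate 2 and 647 in replicate 1. The log2 difference in normalised counts, replicate 2 minus replicate 1, was 0.35. Igf2, which encodes the related ligand IGF-2 and in mice is expressed from the paternal allele in most tissues, stood far above Igf1 at 99.2 TPM in replicate 2 and 92.1 TPM in replicate 1. The log2 ratio of levels, Igf2 over Igf1, was 3.72 ± 0.09. Brain Igf2 is known to come largely from meninges and choroid plexus. The 6 meningeal markers, Igf2 among them, summed to 170 TPM in replicate 2 and 159 TPM in replicate 1. Most of that sum was Igf2 itself, so the sum is no separate measure of meningeal tissue. The part of meninges and choroid plexus in the Igf2 level was not tested.

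Igf1-202, a coding transcript that lacks the exon shown above, held 76.0% of Igf1 TPM in replicate 2 and 67.6% in replicate 1. It was also the main transcript in the second transcript table, at 60.1% in replicate 2 and 63.8% in replicate 1. The transcripts that carry the exon, singled out after their values were seen, together held 10.3% of Igf1 TPM in replicate 2 and 24.8% in replicate 1. In the second table they held 2.16% in replicate 2 and 2.03% in replicate 1, and Igf1-203 was at 0% in both. The gap between the tables in this share was larger than the gap between libraries in the second table. In the first table the libraries differed by more than the tables did in replicate 2, and by less than the tables did in replicate 1. These shares rested on 28.7 estimated counts in replicate 2 and 50.3 in replicate 1 in the first table. Igf1os, an antisense gene that overlaps Igf1, had 0 counts in both libraries in the gene table, and 24.0 in replicate 2 and 17.0 in replicate 1 in the second table.

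The receptors Igf1r and Insr stood at nearly equal levels. Igf1r (chr7:67952827-68233668, plus strand), the receptor for IGF-1, had 22.6 TPM in replicate 2 and 20.5 TPM in replicate 1, or 21.5 ± 1.46 TPM. Insr (chr8:3122061-3279617, minus strand), the insulin receptor, had 22.2 TPM in replicate 2 and 22.3 TPM in replicate 1, or 22.3 ± 0.0707 TPM. The order of the receptors differed between the libraries, and their log2 ratio of levels, Igf1r over Insr, was -0.05 ± 0.10. Of detected protein-coding genes, 59.6% had a lower mean TPM than Igf1r and 60.7% a lower one than Insr. Igf1r had the most expected counts of the 10 genes, 4311 in replicate 2 and 3767 in replicate 1, on a main transcript of 11409 bases. Igf2r, which encodes a receptor that carries IGF-2 to lysosomes for breakdown, lay lower, with a log2 ratio of levels, Igf2r over Igf1r, of -0.84 ± 0.13.

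Part of the TPM of both receptors was held by transcripts that the annotation classes as retained introns, which do not encode a receptor. Igf1r-201, the only coding transcript of Igf1r, held 80.0% of its TPM in replicate 2 and 82.2% in replicate 1, and the other 5 transcripts are all of the retained-intron class. Insr-201, the full-length coding transcript of Insr, held 56.6% in replicate 2 and 55.2% in replicate 1. The retained-intron transcript Insr-202 held 28.7% in replicate 2 and 34.2% in replicate 1. Insr-202, of 1675 bases, took few reads for its TPM. It had 204 expected counts in replicate 2 and 229 in replicate 1, against 2363 and 2169 for Insr-201. Counting coding transcripts only, which was added after the data were seen, Igf1r was above Insr in both libraries, with 18.0 TPM in replicate 2 and 16.9 TPM in replicate 1, against 14.4 TPM and 13.4 TPM for Insr in the same order. The log2 ratio of coding levels, Igf1r over Insr, was 0.33 ± 0.0031, so the call on the order of the receptors depends on whether retained-intron transcripts are counted.

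The Insr exon that marks the B form was in transcripts holding 14.7% of Insr TPM in replicate 2 and 10.6% in replicate 1, or 12.7 ± 2.96%. The second transcript table gave 20.5% in replicate 2 and 12.2% in replicate 1. Both tables thus put most Insr RNA in transcripts that are not annotated with the exon. The annotation holds the exon in 2 transcripts: Insr-203, a coding fragment of 672 bases, and Insr-204, of the retained-intron class. No full-length coding transcript of Insr carries it in this annotation. Within coding transcripts the share was 12.4% in replicate 2 and 7.77% in replicate 1, resting on 20.7 and 11.3 expected counts in that order. The shares are thus shares of annotated transcripts, and the proportion of the receptor forms was not measured.

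**Figure D2:**
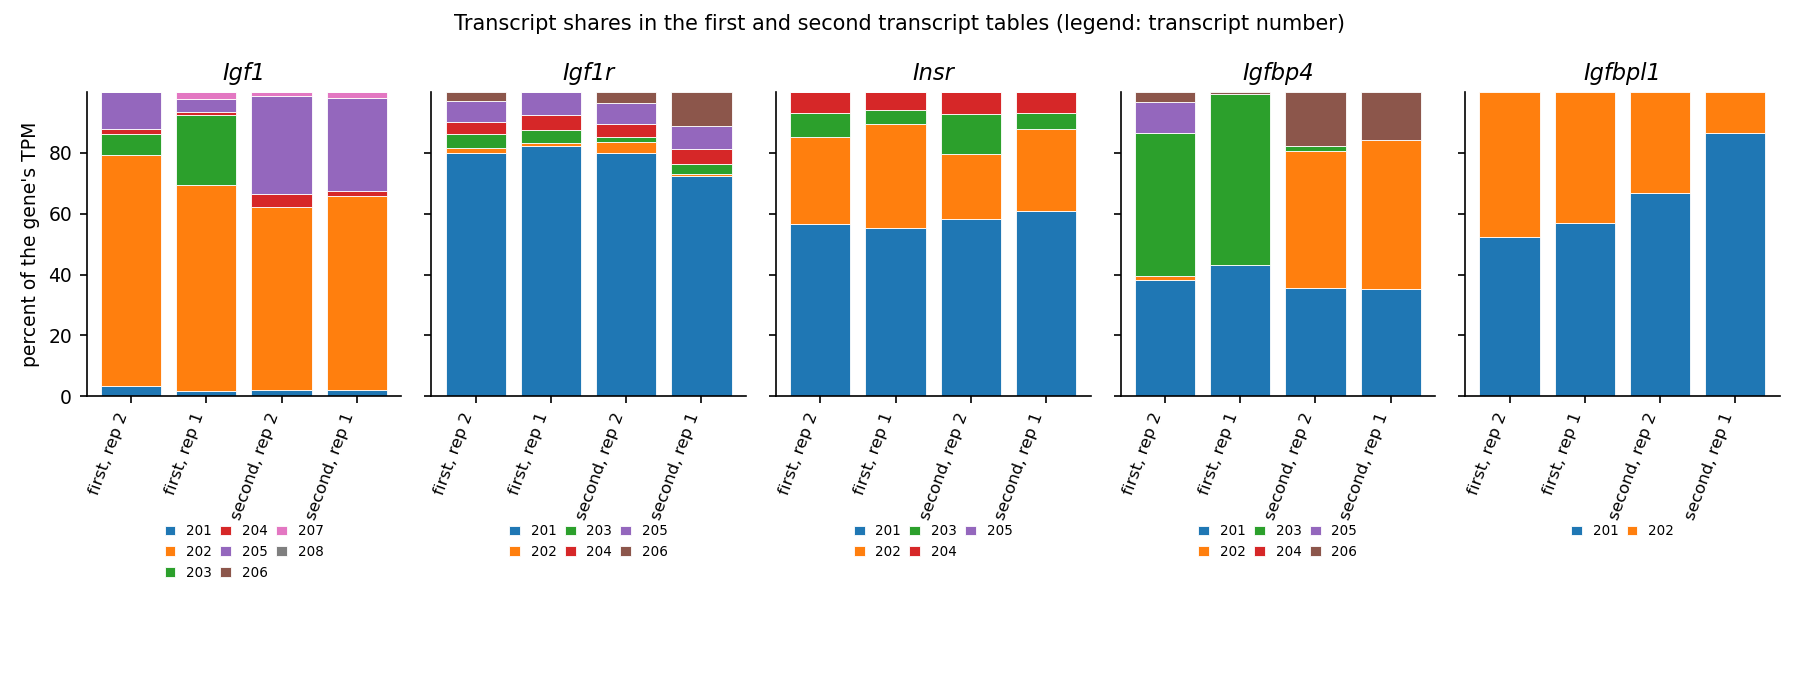
Share of each gene's TPM (percent, stacked to the whole gene) held by each annotated transcript in replicate 2 and replicate 1, in the first transcript table (left pair of bars) and the second (right pair), for the 5 genes with most division among transcripts. The main transcript of Igfbp4 is number 203 in the first table and number 202 in the second, while the other 4 genes keep their main transcript.

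Of the docking proteins, Irs2 was the higher in both libraries. Irs2 (chr8:10984681-11008458, minus strand), a docking protein known for its part in brain growth, had 27.3 TPM in replicate 2 and 23.5 TPM in replicate 1, or 25.4 ± 2.69 TPM. Irs1 (chr1:82233101-82291416, minus strand), the docking protein best known for body growth, had 9.26 TPM in replicate 2 and 8.23 TPM in replicate 1, or 8.75 ± 0.728 TPM. The log2 ratio of levels, Irs2 over Irs1, was 1.53 ± 0.03, and it was 1.51 ± 0.02 in the second transcript table. Each gene has 1 annotated transcript, so no division among transcripts enters this ratio. The counts were 3447 in replicate 2 and 2777 in replicate 1 for Irs2, and 1698 and 1414 in the same order for Irs1. The other docking genes of the family were low: Irs4 had 0.14 TPM in replicate 2 and 0.82 TPM in replicate 1, and Irs3 had 0.08 TPM in replicate 2 and 0.05 TPM in replicate 1.

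Among the binding proteins, Igfbp2 was the highest. Igfbp2 (chr1:72824503-72852474, plus strand), the binding protein prominent in brain and cerebrospinal fluid, had 52.7 TPM in replicate 2 and 40.9 TPM in replicate 1, or 46.8 ± 8.32 TPM. Of detected protein-coding genes, 81.3% had a lower mean. Its neighbour on chromosome 1, Igfbp5 (chr1:72857932-72874884, minus strand), which encodes a binding protein that also attaches to extracellular matrix, lies on the opposite strand with 5457 bases between the genes. Igfbp5 had 29.8 TPM in replicate 2 and 28.8 TPM in replicate 1, or 29.3 ± 0.70 TPM, so the libraries were nearly level. Igfbp5 lay below Igfbp2 in both libraries, with a log2 ratio of levels, Igfbp5 over Igfbp2, of -0.66 ± 0.22. Its counts were the higher ones, 3528 in replicate 2 and 3213 in replicate 1, against 1287 and 932 for Igfbp2 in the same order. The main transcript of Igfbp5 is 6006 bases long and that of Igfbp2 1307 bases, and TPM divides by length.

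Igfbp4 and Igfbp3 differed between the libraries in opposite directions. Igfbp4 (chr11:99041244-99054392, plus strand), which encodes a binding protein that mainly inhibits IGF action, had 48.9 TPM in replicate 2 and 29.2 TPM in replicate 1, or 39.1 ± 13.9 TPM. Igfbp3 (chr11:7206086-7213923, minus strand), which encodes the main IGF carrier of blood plasma, had 10.6 TPM in replicate 2 and 15.8 TPM in replicate 1, or 13.2 ± 3.73 TPM. Both genes lie on chromosome 11. The log2 ratio of levels, Igfbp4 over Igfbp3, was 1.54 ± 0.93, and 0.42 ± 1.06 over coding transcripts only.

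The division of Igfbp4 among its transcripts differed between the tables. In the first transcript table the non-coding Igfbp4-203 held 46.7% of Igfbp4 TPM in replicate 2 and 56.4% in replicate 1. In the second table Igfbp4-203 held 1.48% in replicate 2 and 0% in replicate 1, and another non-coding transcript, Igfbp4-202, held 45.2% in replicate 2 and 49.0% in replicate 1. The coding transcript Igfbp4-201 had a similar share in both tables, 38.3% in replicate 2 and 43.0% in replicate 1 in the first, and 35.5% and 35.3% in the second. The non-coding Igfbp4-203, of 785 bases, took few reads for its TPM in the first table: it had 318 expected counts in replicate 2 and 214 in replicate 1, against 1419 and 890 for Igfbp4-201. Over coding transcripts only, Igfbp4 had 23.9 TPM in replicate 2 and 12.6 TPM in replicate 1 and ranked 4th of the 10 genes. In replicate 2 this included 5.12 TPM of Igfbp4-205, of 489 bases and named after its values were seen, on 40.5 expected counts. Igfbp4-205 was at 0 in replicate 1, and at 0% in both libraries of the second table. Igfbp4-201 alone had 18.75 TPM in replicate 2 and 12.56 TPM in replicate 1. In both tables Igfbp4 was the only one of the 10 genes in which no transcript held over 50% of TPM in both libraries. In the other 9 genes the same transcript led in both tables. For Irs1 and Irs2, with 1 annotated transcript each, both outcomes were fixed by the annotation. The shares over all genes were not worked out, so these counts are no result about the 10 genes. Igfbp3-201 held 96.8% of Igfbp3 TPM in replicate 2 and 96.1% in replicate 1, Igfbp2-201 held 99.2% and 97.4% of Igfbp2 TPM in the same order, and Igfbp5-201 held 95.6% and 97.6% of Igfbp5 TPM. In the second table the non-coding Igfbp5-202 held 15.9% in replicate 2 and 14.4% in replicate 1. There Igfbp2-201 held 83.1% in replicate 2 and 100% in replicate 1, and the coding Igfbp2-202, named after its values were seen, held 16.2% in replicate 2 and 0% in replicate 1.

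Igfbpl1 (chr4:45809468-45826923, minus strand), which encodes a binding-protein-like protein known from immature neurons, was near the lower limit of measurement. It had 0.42 TPM in replicate 2 and 1.22 TPM in replicate 1. These levels rested on 15 expected counts in replicate 2 (95% exact Poisson interval 8.40 to 24.7) and 43 in replicate 1 (31.1 to 57.9). The intervals cover counting error only and are not scaled for library depth. They do not overlap, but the share of all genes of which this holds was not worked out, so nothing is drawn from it. The intervals of Igfbp5, a gene nearly level between the libraries, did not overlap either (3413 to 3646 in replicate 2 and 3103 to 3326 in replicate 1). That case differs: Igfbp5 had its higher count in replicate 2, the deeper library, where Igfbpl1 had its lower one. Its coding transcript Igfbpl1-201 held 52.4% of this TPM in replicate 2 and 56.9% in replicate 1, and the non-coding Igfbpl1-202 held the rest. The summed TPM of 5 immature neuron markers was 870 in replicate 2 and 881 in replicate 1, with 3 of the 5 higher in replicate 2 and none at 0. Most of that sum was Stmn2 (501 and 484 TPM) and Tubb3 (315 and 347 TPM), so it says little about the other markers. Of those, Dcx had 25.8 and 23.8 TPM, Cd24a 21.2 and 16.1 TPM, and Sox11 6.89 and 9.30 TPM, in the same order. The part of immature neurons in the Igfbpl1 level was not tested.

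Set beside Igfbp1, Igfbp6 and Igfbp7, the binding-protein family of 8 genes summed to 181 TPM in replicate 2 and 149 TPM in replicate 1. Igfbp2 held 29.1% of this sum in replicate 2 and 27.5% in replicate 1. Igfbp4 held 27.0% in replicate 2 and 19.6% in replicate 1, and Igfbp5 held 16.5% in replicate 2 and 19.4% in replicate 1. Igfbp7, a low-affinity IGF binder found around blood vessels, was not separated from Igfbp5, with a log2 ratio of levels, Igfbp7 over Igfbp5, of 0.05 ± 0.09. In the second transcript table Igfbp7 was the higher by the same measure, at 0.08 ± 0.03. Igfbp3 held 5.84% in replicate 2 and 10.7% in replicate 1. Igfbpl1 held 0.232% in replicate 2 and 0.821% in replicate 1, and Igfbp1, known mainly from liver, held 0.0774% and 0.101% in the same order. Igfbp2, Igfbp4, Igfbp5 and Igfbp7 thus made up most of the family's RNA in both libraries, while the order below Igfbp2 was not the same in each.

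**Figure D3:**
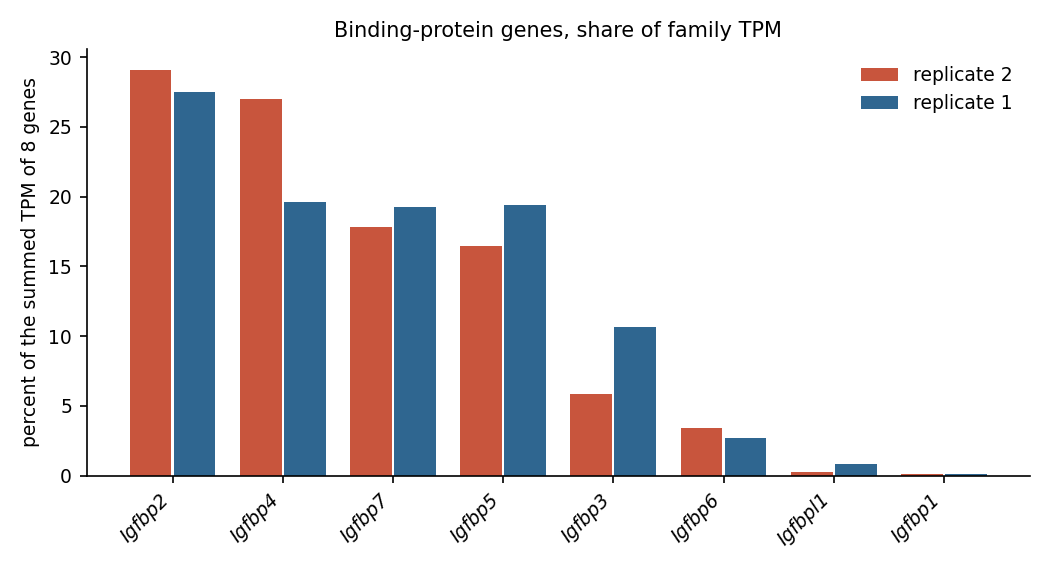
Share of the summed TPM of the 8 binding-protein genes (percent) held by each gene in replicate 2 (left bar) and replicate 1 (right bar). Igfbp2 leads in both libraries, at 29.1% in replicate 2 and 27.5% in replicate 1; the bars of Igfbp4 and Igfbp3 differ most between the libraries.

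Between the libraries, 2 of the 10 genes were past 1.5-fold in normalised counts, against 11% of all genes tested (2079 of 18965). In a list of 10 genes this share is near the background and is no result about these genes. Igfbp4 was the one higher in replicate 2, with a log2 difference, replicate 2 minus replicate 1, of 0.60; in that direction 4.35% of all genes were past 1.5-fold. Igfbpl1 was the one lower in replicate 2, with a log2 difference of -1.50, and in that direction 6.61% of all genes were past 1.5-fold. Igfbpl1 was also the only one past 2-fold, as were 3.94% of all genes. Igfbp3, at -0.58, lay just inside the 1.5-fold limit. The differences of Igfbp2 (0.37), Igf1 (0.35), Irs2 (0.21), Irs1 (0.17), Igf1r (0.10), Igfbp5 (0.04) and Insr (0.01) were smaller. In all, 8 of the 10 genes were higher in replicate 2 by any amount, against 49.9% of all genes. The median log2 difference was 0.13 over the 10 genes and -0.0003 over all genes tested, and the median absolute difference was 0.28 and 0.14 in the same order.

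The members were also set beside genes of similar depth, as a description. Of 4443 genes with counts within 2-fold of those of Igfbp4, 1.60% differed more between the libraries than Igfbp4 did. The corresponding share was 2.45% of 4891 genes for Igfbp3, 5.64% of 4754 genes for Igfbp2, 6.67% of 4961 genes for Igf1 and 2.49% of 3495 genes for Igfbpl1. The steadier members on this measure were Insr (90.5% of 3427 genes), Igfbp5 (73.4% of 2892) and Igf1r (42.5% of 2505). The docking proteins were less steady for their depth, at 21.2% of 4371 genes for Irs1 and 14.6% of 3052 for Irs2. Without regard to depth, 94.5% of all genes differed more than Insr. The striatal, choroid plexus, upper-layer, deep-layer, interneuron and myelin marker lists given above differed between the same libraries, and their part in the differences of Igfbp4, Igfbp3 and Igfbpl1 was not tested. Some other lists were nearly level: 6 endothelial markers summed to 112 TPM in replicate 2 and 111 TPM in replicate 1. In the same order, 6 microglial markers summed to 161 and 164, and 6 astrocyte markers to 1608 and 1545, with none at 0. The 4 oligodendrocyte precursor markers summed to 94.25 and 114 TPM, with all 4 lower in replicate 2. The 5 mural cell markers summed to 113 and 102 TPM, with all 5 higher in replicate 2. The part of these lists was not tested either.

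**Figure D4:**
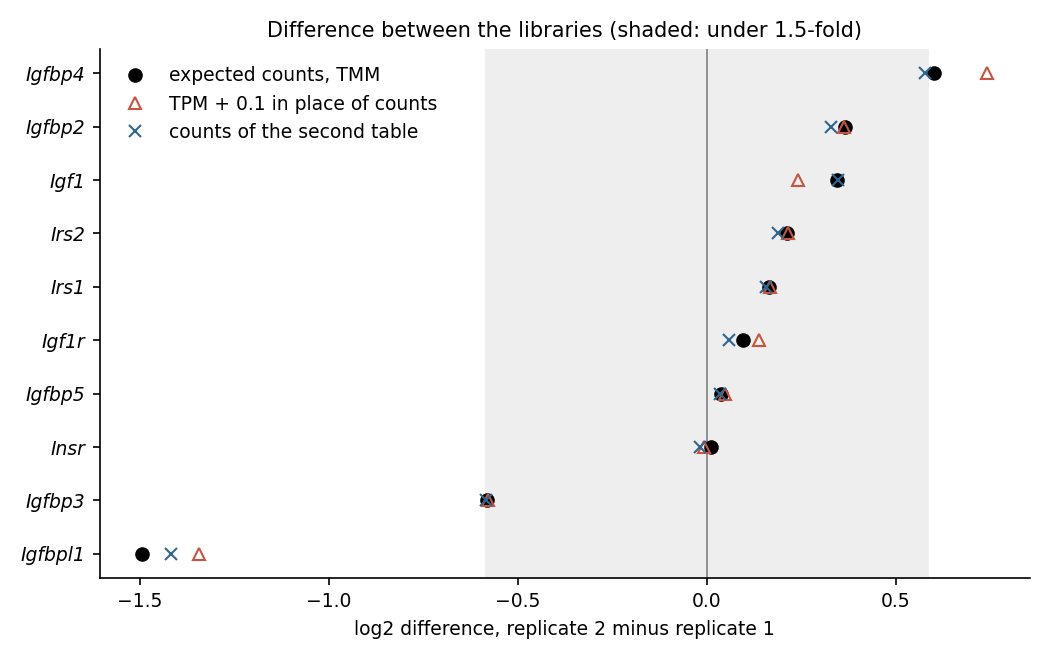
Log2 difference of each gene, replicate 2 minus replicate 1, from expected counts with TMM factors (filled circles), from TPM + 0.1 (triangles) and from the counts of the second transcript table (crosses). The shaded band marks differences under 1.5-fold; Igfbpl1 lies outside it on every measure, and Igfbp4 lies outside it by expected counts (0.60) and inside it by the second table (0.58).

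Of 74 other genes of the pathway, 58 were at 1 TPM or more in both libraries, against 58.7% of nuclear protein-coding genes, with every one of the 25 genes of the PI3K-AKT-mTOR branch among them. Among the highest in that branch were the kinase genes Gsk3a (92.5 TPM in each library) and Gsk3b (93.3 TPM in replicate 2 and 90.1 TPM in replicate 1), and Pik3r2, which encodes a regulatory subunit of PI3-kinase (73.5 and 73.0 TPM in the same order). Igf1r and Insr lay below these 3 downstream genes on the same TPM scale. Of 15 adaptors, 13 were at 1 TPM in both libraries, led by Shc3, the Shc adaptor of neurons, at 103 TPM in replicate 2 and 89.5 TPM in replicate 1. Grb2, which links receptors to RAS, had 83.4 TPM in replicate 2 and 87.4 TPM in replicate 1. The adaptor Sh2b1 had 34.2 TPM in replicate 2 and 34.8 TPM in replicate 1. Grb10, an imprinted gene whose product inhibits both receptors, had 19.7 TPM in replicate 2 and 27.0 TPM in replicate 1, and its log2 ratio of levels over the related Grb14 was 0.67 ± 0.52.

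Of 10 genes listed here as brakes of the pathway, 8 were at 1 TPM in both libraries. The grouping was set for this report, and Ptpn11 is not only a brake. Among the highest were the phosphatase genes Ptpn11 (36.3 TPM in replicate 2 and 38.1 TPM in replicate 1), Ptpn1 (30.4 and 26.4 TPM) and Phlpp1 (24.5 and 23.8 TPM). Socs1 (0.59 and 0.55 TPM) and Trib3 (0.45 and 0.16 TPM) were below 1 TPM. Among the 11 other binding proteins and proteases, 7 reached 1 TPM in both libraries, led by Htra1, a protease that cleaves IGF-binding proteins, at 119 TPM in replicate 2 and 130 TPM in replicate 1. Igfbp7 (32.3 and 28.6 TPM), the insulin-degrading enzyme gene Ide (22.0 and 20.5 TPM) and Htra3 (5.91 and 5.23 TPM) followed. Pappa, which encodes the protease that cleaves the Igfbp4 product, was at 0.13 TPM in replicate 2 and 0.27 TPM in replicate 1, far below Igfbp4. Stc2, whose product inhibits that protease, had 0.66 and 0.81 TPM, Igfbp1 had 0.14 and 0.15 TPM, and Igfals had 0.04 and 0.03 TPM.

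Of the 8 other ligands, Igf2 alone was at 1 TPM in both libraries. The insulin genes were at or near 0: Ins1 was listed at 0 in both libraries, and Ins2 had 0.13 TPM in replicate 2 and 0.42 TPM in replicate 1, on 1 and 3 counts. Insl3 had 0.84 TPM in replicate 2 and 1.01 TPM in replicate 1, Rln1 had 0.53 and 0.91, Insl5 had 0.50 and 0.47, Insl6 had 0.16 and 0.26, and Rln3 was listed at 0 in both. RNA of the insulin receptor gene was thus present at 22.3 TPM, of which 13.9 TPM was in coding transcripts. RNA of the receptor's own ligand was at the edge of detection. The receptor relatives at 1 TPM in both libraries were Igf2r (11.8 TPM in replicate 2 and 12.2 TPM in replicate 1), Rxfp1 (7.64 and 7.16 TPM), Rxfp3 (2.15 and 1.74 TPM) and Rxfp2 (1.43 and 1.08 TPM), the Rxfp genes encoding relaxin-family receptors. Insrr, an orphan relative of the insulin receptor, had 0.30 TPM in both libraries.

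Of the 65 other pathway genes with enough counts to be compared between the libraries, 1 was past 1.5-fold higher in replicate 2, against 4.35% of all genes, and 3 were past 1.5-fold lower, against 6.61% of all genes. These counts are near or below the background and are no result about the pathway. The higher one was Igfbp6, named after its value was seen, at 6.13 TPM in replicate 2 and 3.95 TPM in replicate 1, with a log2 difference in normalised counts of 0.62. The lower ones were Irs4, Pappa (-0.998) and Rln1 (-0.91). Irs4 had the only difference past 2-fold, -2.39, on 18 counts in replicate 2 and 96 in replicate 1. The median log2 difference of the 65 genes was 0.04.

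**Figure D5:**
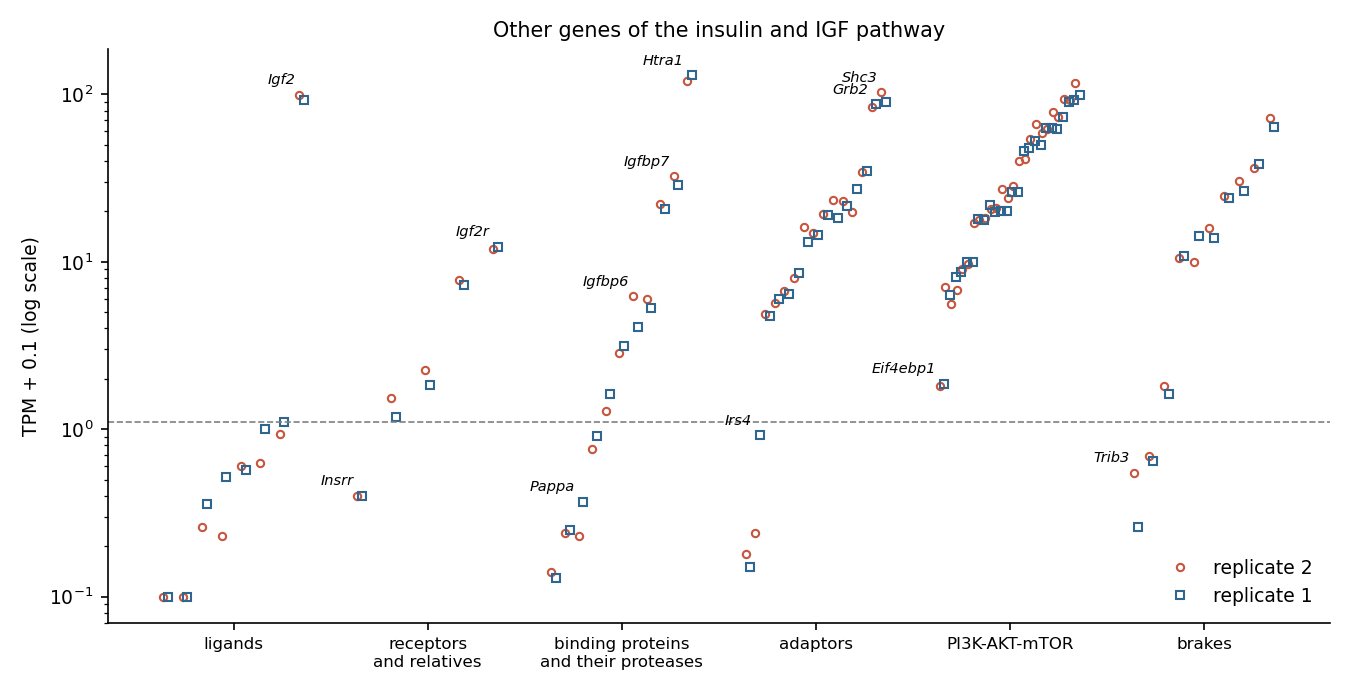
Level of the 74 other pathway genes, as TPM + 0.1 (log scale), in replicate 2 (circles) and replicate 1 (squares), grouped by role and ordered by mean within each group. The dashed line marks 1 TPM; every PI3K-AKT-mTOR gene lies above it in both libraries, and Igf2 is the only ligand that does so.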

How the data were processed

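The authors made a gene table and a transcript table from alignments to the mm10 transcriptome (GENCODE M21), per the file headers and accompanying description files, and a second transcript table directly from the reads. Expected counts in the deposited tables are estimated reads, without normalization. Deposited TPM values (length-corrected abundance) are scaled over every entry of a table, spike-ins among them. Transcript shares recomputed here from TPM differed from the authors' deposited percent values by at most 0.311 percentage points. Which quantifiers were run, and whether counting used strand, is not given in the sources used here, so overlapping genes may share reads. The deposited TPM interval columns were not used.

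Entries that name no gene (26345) held 0.387% of counts in replicate 2 and 0.404% in replicate 1 and were left out of normalization. Levels are TPM with the SD over 2 libraries. Ratios between genes are log2 ratios of TPM + 0.1 within a library. Differences between the libraries are log2 CPM from expected counts rounded to whole numbers, computed in edgeR 4.0.16 (R 4.3.3) with TMM scaling and 2 as prior count, over 18965 genes with at least 10 counts in 1 library. This step was tested on simulated data. Called means past 1.5-fold, without a test. DESeq2 1.42.0 size factors, library size alone, other thresholds and pseudocounts, the second table and single libraries were alternatives, and coding transcripts only was added after the data were seen. Other steps used Python 3.11.15 with pandas 2.3.3 and SciPy 1.17.1.

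Genes were matched by identifier. The genes, the pathway list and the marker lists were chosen with earlier results of these data known. Named were all 10 genes, each gene's highest transcript in either table and those with at least 10% in both libraries, and, of the pathway list, the 4 highest by mean TPM per role, those below 1 TPM, those past 2-fold and those in the preset pairs of related genes. Some genes that this rule names are not reported here. Others are named as chosen after their values were seen. With 2 libraries, no gene could be named for a pattern like that of another.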

Additional observations from a re-analysis of the deposited data

How the results depend on the processing

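No paired analysis was possible because both libraries belong to 1 group and carry 1 replicate number each. The number of the 10 genes at 1 TPM in both libraries ran from 9 to 10 with 1 library left out, and was 9 at thresholds of 0.5 and 2 TPM and in the second transcript table. For the 74 other pathway genes the count, 58 as reported, ran from 58 to 59 with 1 library left out and was 62 at a threshold of 0.5 TPM and 53 at 2 TPM. The number of genes with 1 transcript over 50% ran from 9 to 10 with 1 library left out, the addition being Igfbp4 in replicate 1 alone. Irs1 and Irs2, with 1 annotated transcript each, count in it by annotation alone. The number of genes past 1.5-fold, 2 as reported, was 1 in the second table, where Igfbp4 was at 0.58, and 1 at a limit of 2-fold. With library size as the only scaling it was again 2 by a different make-up at the limit: Igfbp4 was at 0.57 and Igfbp3 at -0.61. That scaling put the median of all genes at -0.0285. The Insr exon share was 16.4% in the second table, 10.1% over coding transcripts only, and ran from 10.6% to 14.7% with 1 library left out. Neighbours separated in the reported order, 7 of 9 as reported, numbered 6 in the second table and 6 over coding transcripts only. Over coding transcripts, Igfbp4 over Igfbp5 (log2 ratio -0.71 ± 0.64) and Insr over Igf1r (-0.33 ± 0.0031) were separated in the opposite order and are not in that 6. Without division by length the log2 ratio of Igfbp5 over Igfbp2 turned to 1.62, because the Igfbp5 transcript is longer. For the single genes and pairs, 115 values under an alternative differed by less than the spread between the libraries or kept their call. A further 37 moved by more, 1 separated pair reversed, 1 value came to lie past the 1.5-fold limit and 2 fell inside it. Among the 37 were changes of sign in pairs not separated as reported. Without division by length, the log2 ratio of Igfbp5 over Igfbp4 went from -0.36 to 1.26. That of Igfbp7 over Igfbp5 went from 0.05 to -2.47, and that of Igf1r over Insr from -0.05 to 0.63. With 2 libraries, leaving 1 out cannot shift a level or ratio by more than its SD. The values of that kind among the 115 were thus fixed in advance and show nothing about stability. Depth limits chiefly Igfbpl1, on 15 counts in replicate 2 and 43 in replicate 1, and the exon-carrying transcripts of Insr and Igf1.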

Other observations

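Igf1 has 2 alternative first exons, both known to be joined to the same downstream exons, and the transcripts were grouped by them after the data were seen. The upstream first exon was in transcripts holding 83.1% of Igf1 TPM in replicate 2 and 93.0% in replicate 1. The downstream first exon was in transcripts holding 16.9% in replicate 2 and 6.99% in replicate 1. In the second transcript table the upstream share was 61.5% in replicate 2 and 65.9% in replicate 1, and the downstream share 38.5% in replicate 2 and 34.1% in replicate 1. Both tables and both libraries thus gave the upstream exon the larger share. The transcript behind most of the gap between the tables was Igf1-205, of 798 bases, which held 12.1% in replicate 2 and 4.10% in replicate 1 in the first table and 32.0% in replicate 2 and 30.5% in replicate 1 in the second. In the first table it rested on 13.4 expected counts in replicate 2 and 3.56 in replicate 1.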
